A study of Homo sapiens with 4 samples.

Results

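Many small nucleolar RNAs (snoRNAs) are made from introns, and some of the genes that carry them encode no protein. GAS5, SNHG1, SNHG3, SNHG4, SNHG5, SNHG6, SNHG7, SNHG8, SNHG9 and SNHG12 are 10 such noncoding snoRNA host genes, and they were taken by symbol from a deposited table of transcripts of breast cancer cells. All 10 were listed among the 23217 gene symbols of the table, with 16 of its 44578 transcript rows. The cells were LV-M100, a subpopulation grown from a single cell of the MDA-MB-231 breast cancer line. Both control libraries received a non-targeting RNA, the negative control NC1 from IDT in replicate 1 and the BLOCK-iT Fluorescent Oligo from Life Technologies in replicate 2. Both depleted libraries received an siRNA against SNRNP40, a spliceosomal protein that belongs to the U5 particle, with siSNRNP40 #1 in replicate 1 and siSNRNP40 #2 in replicate 2. RNA was taken 48 h after lipid-based transfection, ribosomal RNA was removed, and a strand-specific library kit was used. A single clone stands for the cell line here, and the 2 siRNAs of a condition differ from each other, so a replicate is also a different reagent.

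A snoRNA host gene is transcribed as a long precursor. Splicing releases introns, from which exonucleases and bound proteins trim the snoRNAs that guide chemical modification of ribosomal and other RNAs, while the joined exons leave the nucleus as a separate RNA. In the noncoding hosts that RNA has only short reading frames, engages ribosomes, and is degraded by nonsense-mediated decay (NMD), so its steady level is known to respond to translation and to decay factors. Many hosts share with ribosomal protein genes a start of transcription at a C followed by a run of pyrimidines, the 5′ terminal oligopyrimidine type of start. The level of the host RNA and that of its snoRNAs are separate readouts of a gene, and both have rows in the table. Fragments of unspliced host RNA also fall on its exons, so a host row is not a measure of the spliced RNA alone.

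The start regions of the hosts are shown because they place these genes beside the ribosomal protein genes with which they are compared later. Each window of 40 bases runs from 15 bases before the start to 25 bases from it on, 5′ to 3′, with GRCh37 positions. Capitals mark a C followed by at least 4 further bases that are C or T, searched on the transcribed strand only, with its first base within 5 bases of the start. The GAS5 window was read from GRCh37 at the end of the deposited locus, because the RefSeq start lay 1058 bases upstream of it. The other windows are RefSeq start regions of assembly GRCh38.p14 that were found at 1 place each in GRCh37. SNHG6 and SNHG9 had no entry.
GAS5 (chr1:173837101-173837140, minus strand): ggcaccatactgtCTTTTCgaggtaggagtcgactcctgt
SNHG4 (chr5:138609775-138609814, plus strand): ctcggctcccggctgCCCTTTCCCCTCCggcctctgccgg
SNHG5 (chr6:86388427-86388466, minus strand): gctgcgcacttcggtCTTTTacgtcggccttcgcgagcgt
SNHG7 (chr9:139622612-139622651, minus strand): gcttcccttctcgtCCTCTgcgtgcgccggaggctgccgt
SNHG8 (chr4:119199902-119199941, plus strand): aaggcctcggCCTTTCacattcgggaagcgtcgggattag
SNHG12 (chr1:28908361-28908400, minus strand): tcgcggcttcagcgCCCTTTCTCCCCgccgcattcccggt
SNHG1 (chr11:62623333-62623372, minus strand): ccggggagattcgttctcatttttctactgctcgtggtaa
SNHG3 (chr1:28832440-28832479, plus strand): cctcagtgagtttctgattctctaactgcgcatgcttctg

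With RefSeq starts alone, 5 of 8 host genes held such a run, namely SNHG4, SNHG5, SNHG7, SNHG8 and SNHG12. The RefSeq window of GAS5 held none, whereas a run of 6 bases began 2 bases before the deposited locus end. Of all 27305 symbols with a start region in RefSeq, 25.2% held a run by the same rule. The run was present in 29 of 35 ribosomal protein genes that carry no listed snoRNA (82.9%), in 25 of 39 protein-coding snoRNA hosts (64.1%) and in 1 of 16 genes of NMD and exon junction factors (6.25%). A match is a description of letters near an annotated start, and the absence of a match in SNHG1 and SNHG3 says only that these letters are not in these windows. At the same places the deposited locus began within 19 bases of the RefSeq start for SNHG1, SNHG3, SNHG5, SNHG7, SNHG8 and SNHG12. For SNHG4 it began 349 bases further upstream, where the deposited locus also holds the protein-coding gene MATR3.

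The deposited values were FPKM, fragment numbers scaled by transcript length and by the total of mapped fragments, with 1 value per condition. Because the libraries of a condition were merged into that value, the FPKM values carry no replicate error, and no difference was tested here. The FPKM values give neither the spread between replicates nor the depth. FPKM was summed over the rows of a gene. A fold change sets SNRNP40 siRNA over control siRNA, no pseudocount being added, and counts and medians cover genes whose FPKM averaged 1 or more across both conditions, which 9 of the 10 hosts reached. The targeted gene SNRNP40 was listed at 40.4 FPKM with control siRNA and 6.12 after SNRNP40 siRNA, which was 84.9% lower. VIM, CD44, AXL, MSN and CAV1, markers of mesenchymal breast cancer lines such as MDA-MB-231, ranged from 116 to 750 FPKM with control siRNA. ESR1, PGR and CDH1, genes of luminal and epithelial cells that the line is known to lack, were at 0.098 FPKM or below. ERBB2 was at 6.56 and EPCAM at 10.6 FPKM. In bulk RNA, fewer cells with a transcript and less of it per cell cannot be told apart.

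With control siRNA the hosts covered a range from under 1 to 75.4 FPKM, on a scale per transcript length on which genes can be ranked. SNHG6, host of SNORD87, stood highest at 75.4 FPKM, followed by GAS5 at 69.7, SNHG5 at 55.9 and SNHG1 at 49.5 FPKM. SNHG8 and SNHG7 were in the middle at 33.7 and 28.3 FPKM. SNHG3, SNHG12 and SNHG4 were close together at 16.4, 15.2 and 13.3 FPKM, and SNHG9 was listed at 0.870 FPKM. By mean FPKM, SNHG6 took rank 1014 and GAS5 rank 1044 of 23217 symbols. After SNRNP40 siRNA the order differed at 3 places, with GAS5 listed above SNHG6, SNHG1 above SNHG5, and SNHG12 above SNHG3. Since the FPKM values give no spread, none of the neighbours in either order can be said to differ.

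**Figure D1:**
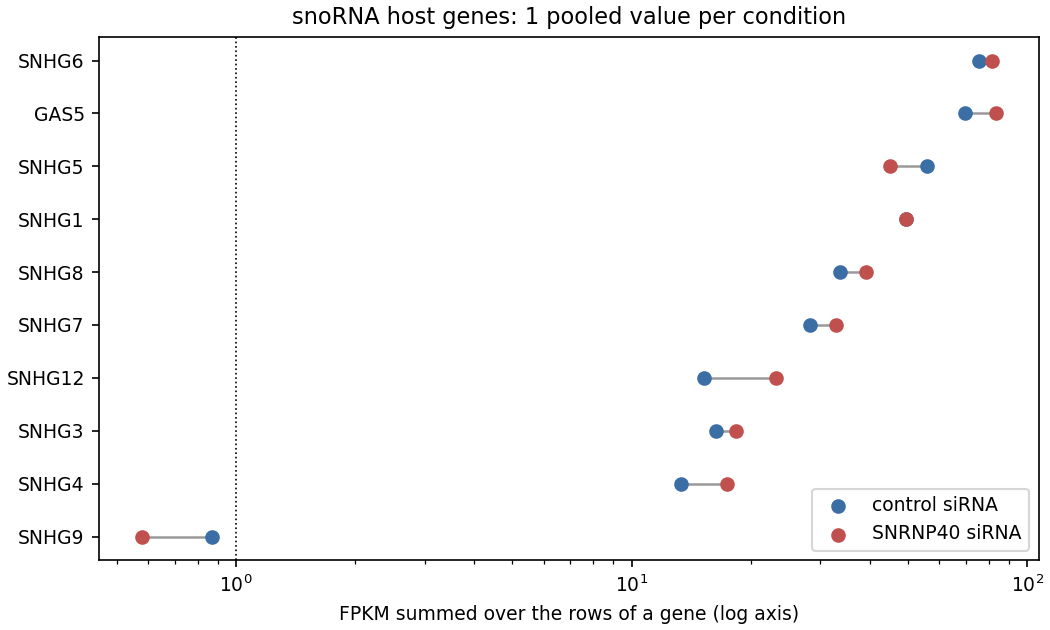
FPKM summed over the rows of each snoRNA host gene (log axis) with control siRNA (blue) and SNRNP40 siRNA (red), 1 pooled value per condition without an error; the dotted line marks 1 FPKM. SNHG12 went from 15.2 to 23.2 FPKM, SNHG5 lay lower after SNRNP40 siRNA at 44.9 against 55.9, and the points of SNHG1 coincide at 49.5.

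SNHG12 had the largest fold change among the 9 hosts above 1 FPKM. It lies on the minus strand of chromosome 1 (chr1:28905050-28909644 in GENCODE on GRCh37) and hosts SNORA44, SNORA61, SNORA16A and SNORD99. It was listed at 15.2 FPKM with control siRNA and 23.2 after SNRNP40 siRNA, 1.52-fold or 0.61 on the log2 scale. SNHG12 was the only host past an absolute log2 fold change of 0.5, which is 1 of 9. Of all 12334 genes above the same filter, 10.3% were past 0.5, 646 in the higher and 624 in the lower direction. Among the 5610 genes with a mean from 10 to 100 FPKM, the range of most hosts, the share was 5.1%. With 1 host of 9 past the limit, the count of hosts is near that of genes in general.

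SNHG4, on the plus strand of chromosome 5 (chr5:138609791-138620588), hosts SNORA74A. It summed to 13.3 FPKM with control siRNA and 17.4 FPKM after SNRNP40 siRNA, a log2 fold change of 0.38. GAS5, named for its accumulation in growth-arrested cells and host of a large series of box C/D snoRNAs, lies on the minus strand of chromosome 1 (chr1:173827697-173838020). GAS5 was listed at 69.7 and 83.3 FPKM, a log2 fold change of 0.26. In absolute terms GAS5 had the largest difference of the hosts, and among those above 1 FPKM SNHG4 had the largest fold after SNHG12.

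SNHG8 on the plus strand of chromosome 4 (chr4:119199858-119206471) went from 33.7 to 39.2 FPKM, a log2 fold change of 0.22. SNHG7 on the minus strand of chromosome 9 (chr9:139615818-139622636) went from 28.3 to 32.8 FPKM, a log2 fold change of 0.21. SNHG3, host of the SNORA73 snoRNAs on the plus strand of chromosome 1 (chr1:28832492-28837404), went from 16.4 to 18.3 FPKM, a log2 fold change of 0.16. SNHG6 on the minus strand of chromosome 8 (chr8:67832796-67838633) went from 75.4 to 81.4 FPKM, a log2 fold change of 0.11. These 4 hosts were listed between 7.88% and 16.3% above their control values.

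SNHG1, the host of SNORD22 and of SNORD25 to SNORD31 on the minus strand of chromosome 11 (chr11:62619450-62623425), had the same value in both conditions to 3 digits, 49.5 FPKM. SNHG5, host of SNORD50A and SNORD50B on the minus strand of chromosome 6 (chr6:86360209-86388650), went the other way. It was listed at 55.9 FPKM with control siRNA and 44.9 after SNRNP40 siRNA, a log2 fold change of -0.32. SNHG9 on the plus strand of chromosome 16 (chr16:2014896-2015510) was at 0.870 and 0.579 FPKM, a log2 fold change of -0.59, and was left out of the counts because its mean was below 1.

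Of the 9 hosts, 8 had a log2 fold change above 0 and SNHG5 one below, beside 50.5% of all genes above 0 and 46.4% of genes at 10 to 100 FPKM. SNHG1 is in the count by a log2 fold change of 0.0011, which is smaller than the median of all genes, 0.0034, so relative to that median 7 hosts were higher and SNHG1 and SNHG5 lower. The median host log2 fold change was 0.21, with a range of -0.32 to 0.61. Over genes at 10 to 100 FPKM the median was -0.02. The FPKM of all 10 hosts together came to 358.4 with control siRNA and 390.6 after SNRNP40 siRNA, a log2 fold change of 0.12.

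**Figure D2:**
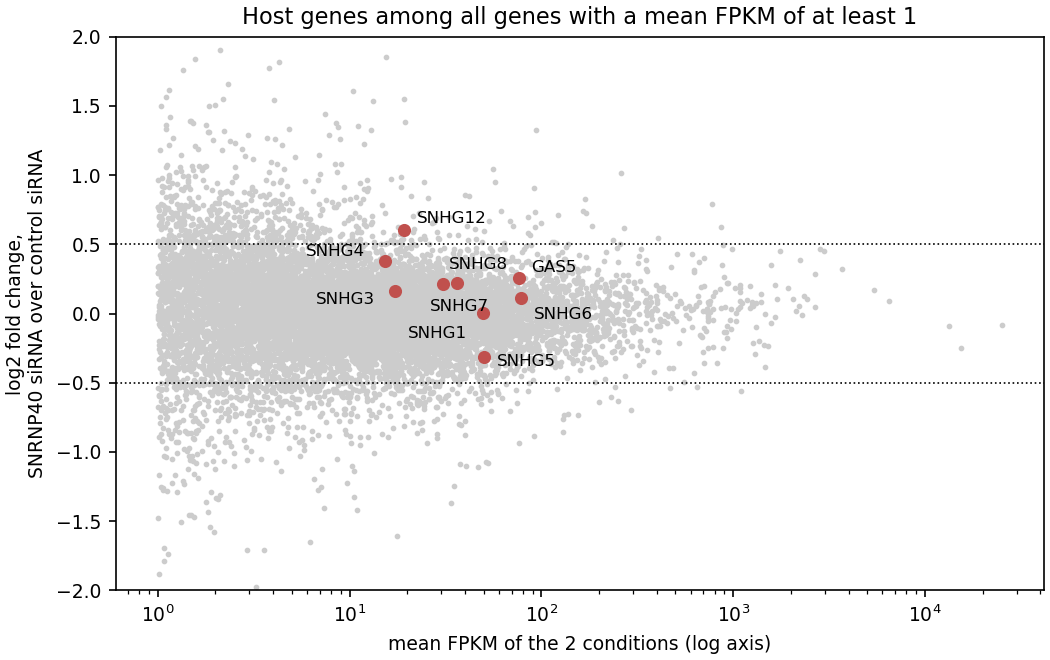
Log2 fold change (SNRNP40 siRNA over control siRNA) against the mean FPKM of the conditions (log axis) for genes with a mean of at least 1; grey points are all genes, red points the 9 hosts, and dotted lines mark 0.5 in either direction. The range shown ends at 2 in either direction and leaves out 27 genes. SNHG12 lies above the upper line at 0.61, and the other hosts lie between -0.32 and 0.38.

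A short list of other noncoding snoRNA hosts, not a full set, was read beside them. Of 12 symbols in that list, 5 were listed in the table and 4 reached a mean of 1 FPKM, all with log2 fold changes above 0 and a median of 0.16. SNHG15 was at 0.43, EPB41L4A-AS1 at 0.17, DANCR at 0.16 and SNHG10 at 0.05, and none was past 0.5. The mean level of these 4 had a median of 10.7 FPKM. Long noncoding RNA genes in general, picked by their GENCODE type without the hosts described but with the other noncoding hosts, had a median of 0.09 over 114 genes above the filter, with 61.4% above 0 and 21.1% past 0.5 in either direction. Their mean level had a median of 2.38 FPKM, beside 36.4 for the hosts. At 10 to 100 FPKM there were 16, with a median of 0.08 and 11 above 0.

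Protein-coding snoRNA hosts also release snoRNAs from introns, but their spliced RNA is a translated mRNA. All 52 of the list reached the filter, 27 above and 25 below 0, with a median of 0.01. PPAN, a ribosome assembly factor, was at 0.54 and was the only one past 0.5. RPL39, a protein of the large ribosomal subunit, was at 0.46. At the other end RPL4, of the same subunit, was at -0.50, just inside the limit, and PABPC4, a cytoplasmic poly(A)-binding protein, at -0.28. Set side by side, 8 of 9 noncoding hosts, SNHG1 by only 0.0011, and 27 of 52 coding hosts lay above 0. The lists also differed in level, with a median of the mean FPKM of 36.4 for the noncoding and 253.8 for the coding hosts. The difference in the share above 0 was not tested.

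Ribosomal protein genes without a listed snoRNA share the type of start with many hosts. Of these 40 genes, 33 had a log2 fold change above 0 and 7 below, with a median of 0.10. RPL29 of the large subunit was at 0.63. RPS16 and RPS4X, both of the small subunit, were the lowest at -0.24 and -0.22. The share above 0 was 88.9% in the noncoding hosts and 82.5% in these translated genes. The mean level of the translated genes had a median of 818.9 FPKM, and no share of all genes was formed at that level. In the protein-coding hosts 27 of 52 were above 0 (51.9%). A start region was found for 39 of these 52, and 25 of the 39 (64.1%) held the run. A link between the type of start and the fold change was not tested.

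The genes of the decay pathway itself, the NMD and exon junction factors, stayed within 0.5 in all 19 cases, 12 above and 7 below 0, with a median of 0.03. The highest were PNRC2, an adaptor between the NMD helicase and decapping, at 0.42 and MAGOHB, a subunit of the exon junction complex core, at 0.27. DCP2, the decapping enzyme, was lowest at -0.29, and SMG8, a partner of the kinase that acts on the NMD helicase, was at -0.18. Of 11 mRNAs known as targets of decay, 10 reached the filter, 6 above and 4 below 0, with a median of 0.04. GADD45A, a growth arrest and stress gene, was at 0.65 and ATF3, a stress-induced transcription factor, at 0.58. These were the only 2 of 10 past 0.5, beside 10.3% of all genes. ATF3 was near the filter, at 1.24 FPKM with control siRNA and 1.85 after SNRNP40 siRNA. ATF4 and DDIT3, transcription factors of the integrated stress response, were lowest at -0.12 and -0.06. The proteins that bind and assemble snoRNAs numbered 16, 11 above and 5 below 0, with a median of 0.06 and none past 0.5. FBL, the methyltransferase of box C/D particles, was at 0.31 and its partner NOP56 at 0.23. GAR1, a core protein of box H/ACA particles, was at -0.28 and NAF1, their assembly factor, at -0.25. NAF1 was near the filter, at 2.11 and 1.77 FPKM.

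**Figure D3:**
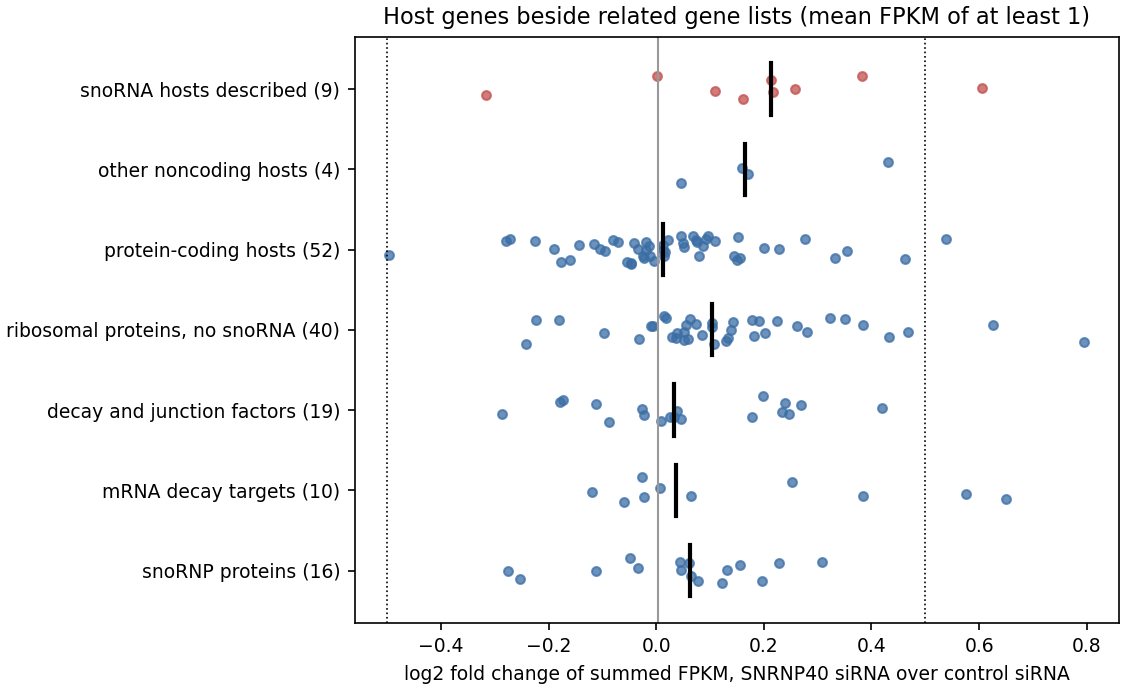
Log2 fold change of summed FPKM (SNRNP40 siRNA over control siRNA) for each gene of a list with a mean FPKM of at least 1, with the number of genes in parentheses; black bars are list medians, the grey line is the median of all genes, dotted lines mark 0.5 in either direction, and vertical offsets within a list have no meaning. The bar of the hosts described lies at 0.21, and the bars of the other lists lie between 0.01 and 0.16.

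Several hosts had more than 1 row in the table. Rows of a gene share fragments, which the authors' program divides between overlapping transcripts by a model, and the table does not give their exons. None of the 14 host rows with a mean of at least 1 FPKM was past an absolute log2 fold change of 1, beside 10.5% of 16691 rows. That share covers all rows from 1 FPKM up, whereas the lowest of the 14 had a mean of 5.44 FPKM. No share was formed for rows at the levels of the hosts. Of the 14, 11 had a log2 fold change above 0 and 3 below.

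SNHG3 had the largest shift between rows. Its first row was listed at 12.4 FPKM with control siRNA and 11.3 after SNRNP40 siRNA, and its second row at 3.97 and 6.97 FPKM, a log2 fold change of 0.81. The share of the first row was 75.8% with control siRNA and 61.9% after SNRNP40 siRNA. SNHG3 therefore lay higher in sum while its main row lay lower, at a log2 fold change of -0.13. The same deposited gene model holds RCC1, the nucleotide exchange factor of the GTPase RAN, whose sum was 23.5 and 24.7 FPKM. One RCC1 row went from 0.984 to 3.78 FPKM, a log2 fold change of 1.94, while the main RCC1 row was at 16.0 and 15.7 FPKM. The part of shared exons in the values of SNHG3 was not tested.

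SNHG4 had 2 rows of near equal level. The first row was at 7.17 and 8.41 FPKM and the second at 6.17 and 8.99 FPKM, so the second went from 46.2% to 51.7% of the gene. Both rows of SNHG4 were higher after SNRNP40 siRNA. MATR3, a nuclear matrix protein gene in the same deposited gene model, was at 192.6 and 191.4 FPKM in sum. Within MATR3 the main row was at 183.6 and 174.3 FPKM, and a smaller row was at 7.82 and 15.8 FPKM, a log2 fold change of 1.02. The part of fragments shared with MATR3 in the values of SNHG4 was not tested.

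SNHG7 had 3 rows, of which the second was the main one and carried the difference. That row was at 15.9 FPKM with control siRNA and 20.5 after SNRNP40 siRNA, and its share was 56.1% and 62.4%. The first row of SNHG7 was at 7.35 and 6.57 FPKM and the third at 5.09 and 5.79 FPKM. SNHG8 also had 3 rows, and the third was the main one, at 20.3 and 25.8 FPKM with a share of 60.1% and 65.9%. The first row of SNHG8 was at 11.9 and 13.4 FPKM. The second was at 1.54 FPKM with control siRNA and was listed at 0 after SNRNP40 siRNA. At 4.58% of the gene it was a small part of the SNHG8 value.

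**Figure D4:**
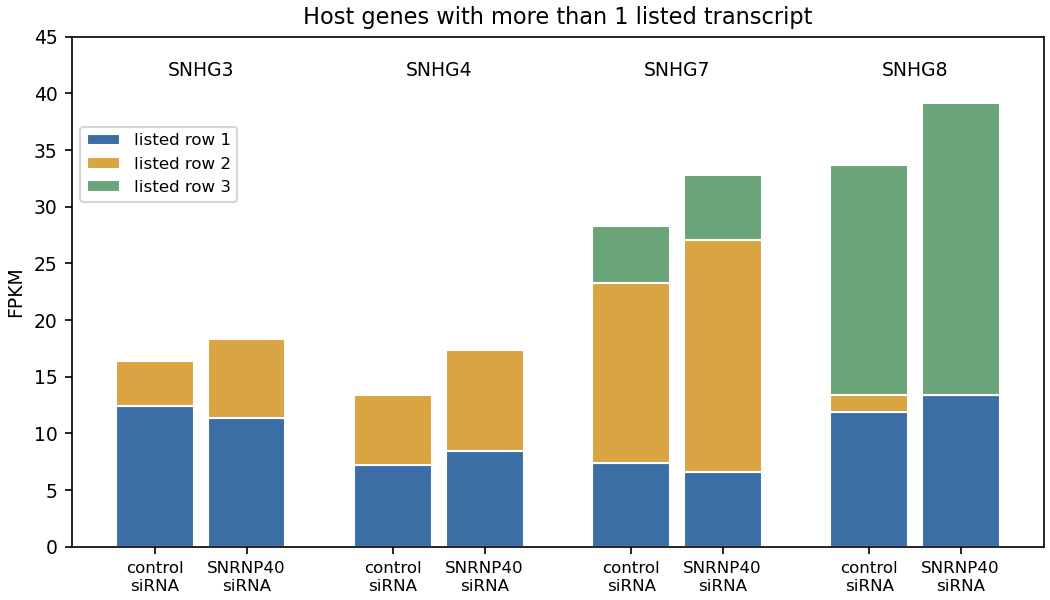
FPKM of each listed transcript row of the hosts with more than 1 row, stacked to the gene sum, with control siRNA (left bar of a pair) and SNRNP40 siRNA (right bar); colours number the rows of a gene in the order of the table, without errors since each condition has 1 pooled value. In SNHG3 the second row goes from 3.97 to 6.97 FPKM while the first goes from 12.4 to 11.3, and in SNHG7 and SNHG8 the main row carries the difference.

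Besides RCC1 and MATR3, a gene above the filter overlapped the deposited span of SNHG12 and another that of GAS5. TRNAU1AP, a selenocysteine tRNA-associated protein gene within the deposited span of SNHG12, was at 14.2 FPKM with control siRNA and 11.5 after SNRNP40 siRNA, a log2 fold change of -0.30 beside 0.61 for SNHG12. LOC100506046 within the span of GAS5 was at 3.53 and 4.06 FPKM, a log2 fold change of 0.20 beside 0.26 for GAS5. Whether counting used the strand of the reads is not given in the sources used here, so fragments of overlapping genes on opposite strands may not have been told apart.

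The snoRNAs themselves had rows of their own. The analysis covered 32 snoRNAs of the hosts, 30 of which were listed, all within the deposited span of their host. SNORA73A and SNORA73B of SNHG3 had no row. Box C/D snoRNAs guide methylation of ribose and end near the letters CTGA, and box H/ACA snoRNAs guide the conversion of uridine to pseudouridine and end near the letters ACA. The box C/D snoRNAs below are shown because their rows are read against those of GAS5 and SNHG12, and because GENCODE places them on GRCh37. Capitals mark the last CTGA.
SNORD78 of GAS5 (chr1:173834760-173834824, minus strand): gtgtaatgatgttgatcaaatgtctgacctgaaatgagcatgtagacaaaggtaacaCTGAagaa
SNORD99 of SNHG12 (chr1:28905261-28905334, minus strand): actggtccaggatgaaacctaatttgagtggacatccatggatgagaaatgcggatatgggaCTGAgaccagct

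At 65 and 74 bases the box C/D examples are shorter than a usual library fragment. FPKM of such short rows depends on how the program corrects for length, and reads of unspliced host RNA also fall on them, so their level is not a measure of the mature snoRNA alone. Of the 30 rows, 27 reached a mean of 1 FPKM, 11 with a log2 fold change above 0 and 16 below, and the median was -0.09. In 20 of the 27 the log2 fold change was below that of the host. GAS5 gave 8 of these and SNHG1 5, each set against a single host value. SNORD29 of SNHG1 is counted at 0.0006 beside 0.0011 for its host. The same count was not made for snoRNAs of other hosts, so the 20 have no background beside them. Past 0.5 were 6 of 27 rows, 2 higher and 4 lower, beside 29.2% of the 212 other snoRNA and scaRNA rows above the filter.

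GAS5 and its snoRNAs differed in direction. SNORD76 was the most abundant, at 802.6 FPKM with control siRNA and 674.0 after SNRNP40 siRNA, a log2 fold change of -0.25. SNORD78, shown above, was at 250.2 and 180.3 FPKM, a log2 fold change of -0.47. SNORD44 was at 51.6 and 28.1 FPKM, the lowest of the GAS5 rows at -0.88, and SNORD80 was at 101.5 and 71.7 FPKM. Of 9 GAS5 snoRNA rows above the filter, 7 were below 0 and 8 were below GAS5 itself, which was at 0.26. The exceptions to the lower direction were SNORD77, at 8.30 and 14.5 FPKM, and SNORD74, at 5.21 and 5.91 FPKM, which were the least abundant rows of the 9. Summed, the GAS5 rows came to 1532 and 1251 FPKM, a log2 fold change of -0.29.

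The direction in GAS5 is to be read against box C/D rows in general. Of the 21 box C/D rows of all hosts, 13 were below 0 (61.9%), with a median of -0.09. Of the 107 other box C/D rows in the table, 60.7% were below 0, with a median of -0.18. The share of lower rows over all hosts was therefore near that of box C/D rows elsewhere. The 21 include the 9 rows of GAS5, where 7 were below 0 (77.8%), and the 8 of SNHG1, where 4 were. The pooled share thus does not describe GAS5 alone. Box H/ACA rows of other genes leaned the other way, with 55 of 82 above 0 and a median of 0.12, and the 6 of the hosts had 3 above and 3 below. Box type and transcript length go together, so their parts in these values cannot be told apart.

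Among the other hosts, SNHG12 and its box H/ACA rows lay in the same direction. SNORA61 was at 276.7 and 381.3 FPKM, a log2 fold change of 0.46, and SNORA16A at 8.45 and 13.1 FPKM, a log2 fold change of 0.64. SNORA44 was at 267.8 and 288.4 FPKM, and the box C/D row SNORD99 at 255.8 and 248.3 FPKM. Only SNORA16A of these 4 had a larger log2 fold change than SNHG12 itself, at 0.61.

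In SNHG1, whose own value was the same in both conditions, the 8 box C/D rows split into 4 above and 4 below 0. SNORD27 was the most abundant at 1653 and 1265 FPKM, a log2 fold change of -0.39, while SNORD29 was at 1034 and 1035 FPKM. SNORD22 was the highest by fold, at 366.8 and 424.1 FPKM or 0.21. The rows of 1 host thus ranged from -0.39 to 0.21.

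SNHG5 and SNORD50A had opposite directions, since SNORD50A was at 175.9 and 215.0 FPKM, a log2 fold change of 0.29 beside -0.32 for the host. SNORD50B was at 2.68 and 1.10 FPKM, near the filter. SNORD87 of SNHG6 was at 186.5 and 222.1 FPKM, a log2 fold change of 0.25 beside 0.11 for the host.

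SNORA74A of SNHG4 was at 39.2 and 31.4 FPKM, a log2 fold change of -0.32 beside 0.38 for the host. SNORA43 of SNHG7 was at 9.47 and 6.14 FPKM, a log2 fold change of -0.63 beside 0.21. SNORA24 of SNHG8 was by far the most abundant snoRNA row of the hosts, at 25803 and 24328 FPKM, a log2 fold change of -0.08 beside 0.22 for the host. SNORD81 of GAS5, SNORA17 of SNHG7 and SNORA78 of SNHG9 were below the filter.

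**Figure D5:**
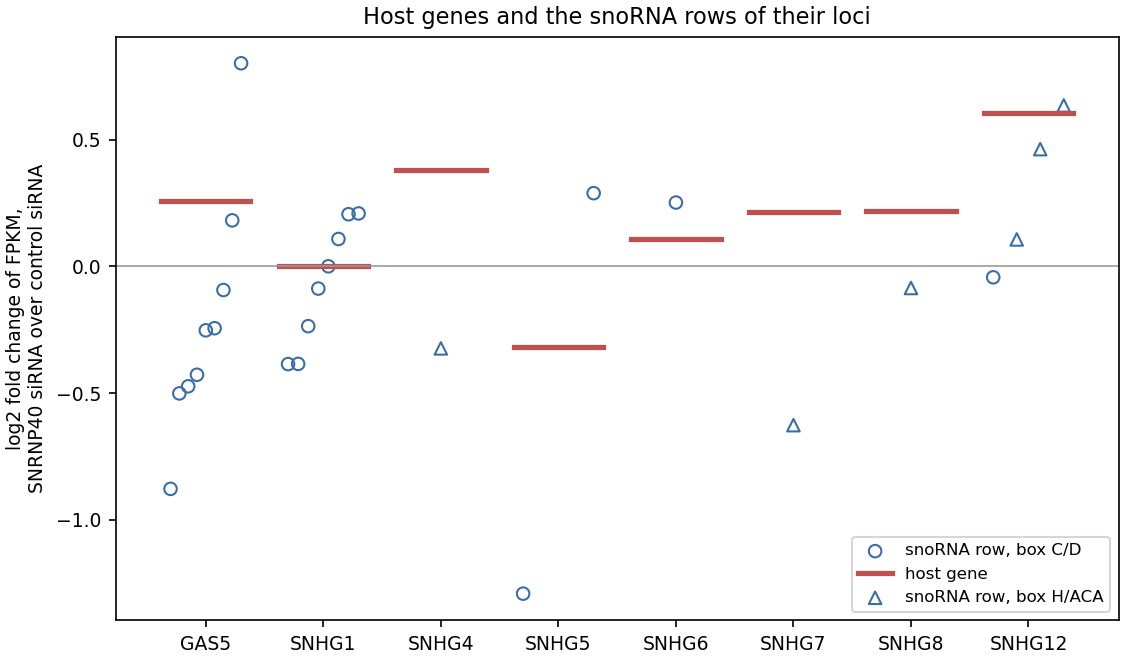
Log2 fold change of FPKM (SNRNP40 siRNA over control siRNA) for each host (red bar) and for the snoRNA rows of its locus with a mean FPKM of at least 1 (circles, box C/D; triangles, box H/ACA), sorted within a host by fold change. In GAS5, 8 of 9 rows lie below the bar at 0.26, and in SNHG12 3 of 4 rows lie below the bar at 0.61.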

How the data were processed

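The 4 libraries (LV-M100, 2 per condition) were examined through 1 deposited table of transcripts. Per the study's methods and the submitters' processing notes, cutadapt 1.2.1 was used for trimming, TopHat 2.0.8 for mapping to hg19, Cufflinks and cuffmerge 2.0.2 for transcript models, and cuffdiff 2.0.2 for the values. In the deposited table, FPKM was normalized by the authors for length and mapped fragments, and it pools the 2 libraries of a condition. The authors' fold changes, test statistics, p-values and q-values in the table were not used. The deposited coordinates span all overlapping transcripts of a locus.

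FPKM was summed by gene symbol, and log2 fold changes were formed without a pseudocount for genes with a mean of at least 1. The FPKM columns hold 1 value per condition, so no test was made from them here, no replicate error is given, and limits of 0.5 for genes and 1 for rows describe size only. The text names all 10 hosts, their rows of at least 5% of the gene, overlapping genes above the filter, and the 2 highest and 2 lowest genes of each list. Of the items this rule names, 1 gene is not reported here. The hosts and lists were chosen with earlier results of these data known. The snoRNA rows to print and the comparisons with long noncoding RNAs, with genes at 10 to 100 FPKM and with other snoRNA rows were chosen after values were seen. Gene spans came from GENCODE release 44 on GRCh37, which shares hg19 coordinates, and start regions from RefSeq. Alternatives changed the filter, the pseudocount, the scaling, the summing of rows and the set of hosts. Only the summing by gene and the calls past 0.5 were run on simulated data. The simulated shifts were well past that limit and the noise was small. Their recovery was therefore assured and says nothing about differences of the size listed for the hosts. Python 3.11.15, numpy 2.4.6, pandas 2.3.3 and matplotlib 3.10.9 were used.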

Additional observations from a re-analysis of the deposited data

How the results depend on the processing

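Without a filter on FPKM, 2 hosts were past an absolute log2 fold change of 0.5 in place of 1, since SNHG9 was then counted. With the most expressed row in place of the gene sum, SNHG3 was at -0.13, SNHG4 at 0.23, SNHG7 at 0.37 and SNHG8 at 0.35. Each host with more than 1 row moved by more than 0.1 under that choice of row, and SNHG3 changed sign. Of 98 alternative values, 93 stayed within 0.1 on the log2 scale or, for counts, within 1.5 times. Many of these could not move and are no measure of stability. A filter of 5 FPKM kept the same 9 hosts, and centring on the median shifted each gene by 0.0034. For a host with 1 row, the most expressed row is the gene sum. Leaving out 1 host at a time gave host medians of 0.19 to 0.22. Upper-quartile scaling raised each gene's log2 fold change by 0.03. No paired analysis was possible because each condition has 1 pooled value, and fits without each replicate or with a replicate block were not run for the same reason. Depth is unknown, so no limit of detection can be given for SNHG9 or for rows listed at 0. From the FPKM values alone, no difference here can be set against the spread between libraries, and the authors' test values were not used.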
